A study of Mus musculus with 6 samples.

Results

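Embryonic globins and other genes of the red cell lineage were followed in cortical cells of mouse embryos whose dams had been given phenobarbital, a barbiturate drug that strengthens currents through GABA-A receptors. The genes were Hba-a1, Hba-x, Hbb-y and Hbb-bh1 (globins), Alas2 (heme synthesis), Epb42 and Slc4a1 (membrane), Gata1 and Klf1 (transcription factors) and Ahsp (globin chaperone), and each was found by matching the accession of its array probe to a RefSeq gene symbol. Of the 10 genes, 9 were found, on 10 probes of 55681, because Hbb-y has 2 probes. Ahsp had no matched accession and was not analysed here. The genes stand among 37208 gene and transcript names on the array, of which 25304 could be tested, all 9 erythroid genes included.

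The phenobarbital group holds 3 arrays of cells from C57BL/6N embryos whose dams received 80 mg/kg phenobarbital in saline, from a stock of 8 mg/mL, by intraperitoneal injections 6 h apart on embryonic days 10 to 11. The control group holds 3 arrays of cells from C57BL/6N embryos of dams injected with saline alone. In both groups the cortex was taken at E12.5 by the sample labels and E12 by the protocol, dissociated mechanically and plated on poly-L-ornithine and fibronectin. RNA was isolated 4 h after plating, with no sorting step described, and labelled with Cy3 for 1-colour arrays. No genotype or transgene distinguishes the groups. Whether the replicates of a group are different litters or culture wells is not given, so a p-value here covers only how far these arrays differ within a group, and that difference may be technical.

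Red cells of the mouse embryo arise in successive waves. Primitive erythroid cells from the yolk sac circulate as nucleated cells through all organs, the forebrain included, and carry the embryonic globins Hba-x, Hbb-bh1 and Hbb-y beside adult alpha-globin, while definitive red cells form later in the fetal liver and carry adult alpha- and beta-globin. In both, GATA1 and KLF1 bind GATA and CACCC motifs and switch on globin genes, the heme enzyme gene Alas2 and membrane protein genes such as Slc4a1 and Epb42. Neural progenitors are not known to run this programme.

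Every erythroid gene had a lower mean with phenobarbital than in control. Of the 9 tested, Hba-a1, Hbb-y, Alas2, Epb42 and Slc4a1 fell (limma, adjusted p below 0.05), none rose, and Hba-x, Hbb-bh1, Gata1 and Klf1 did not pass. Across all names 10.5% fell and 6.24% rose by the same threshold. In 6 of the 9 (these 5 and Hbb-bh1) every phenobarbital array lay below every control array, as in 32.4% of all names. All 9 log2 fold changes were negative, as were 68% of those of all names. The 9 ran from -1.60 for Slc4a1 to -0.62 for Hba-a1, with a median of -1.41, against -0.16 for all names, so their median lay -1.24 from that of all names. The median of the 9 was -0.82 without control replicate 2 and -1.70 without control replicate 3. In RNA of a mixed culture, fewer cells of a type and less RNA per cell cannot be told apart. The calls depended on single arrays: none of the 9 passed without control replicate 1, without phenobarbital replicate 1 or without phenobarbital replicate 2, 2 passed without phenobarbital replicate 3, 5 without control replicate 2 and 8 without control replicate 3. Across all names 871 to 4397 passed with 1 array left out, against 4234 with all 6. The median of the 9 was -1.35 without control replicate 1, -1.14 without phenobarbital replicate 1 and -1.30 without phenobarbital replicate 2.

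The promoters of a heme enzyme and a membrane protein that fell, and of 1 embryonic globin from each globin cluster, are shown because these genes share GATA1 and KLF1 as known regulators. Each is the RefSeq (GRCm38.p6) window from 250 bases before to 50 bases after the gene's start, on the gene's strand, at chrX:150547167-150547466 (+) for Alas2, chr2:121036828-121037127 (-) for Epb42, chr11:32276350-32276649 (+) for Hba-x and chr7:103853158-103853457 (-) for Hbb-y. Capitals mark matches on either strand, so that a match on the opposite strand shows its reverse complement. The GATA motif was searched as GATA with A or T before it and A or G after it, and the CACCC motif by those letters.
Alas2: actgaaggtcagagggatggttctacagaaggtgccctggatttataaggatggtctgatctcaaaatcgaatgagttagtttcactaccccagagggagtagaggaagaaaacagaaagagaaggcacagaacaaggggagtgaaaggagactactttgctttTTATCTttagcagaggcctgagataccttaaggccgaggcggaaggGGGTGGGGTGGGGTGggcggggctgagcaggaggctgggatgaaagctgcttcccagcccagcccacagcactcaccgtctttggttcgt
Epb42: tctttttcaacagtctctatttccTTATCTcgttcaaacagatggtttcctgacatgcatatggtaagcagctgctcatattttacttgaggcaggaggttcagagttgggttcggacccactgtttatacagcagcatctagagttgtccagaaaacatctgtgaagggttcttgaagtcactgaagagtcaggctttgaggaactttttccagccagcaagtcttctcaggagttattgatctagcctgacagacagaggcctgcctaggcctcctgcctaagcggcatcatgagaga
Hba-x: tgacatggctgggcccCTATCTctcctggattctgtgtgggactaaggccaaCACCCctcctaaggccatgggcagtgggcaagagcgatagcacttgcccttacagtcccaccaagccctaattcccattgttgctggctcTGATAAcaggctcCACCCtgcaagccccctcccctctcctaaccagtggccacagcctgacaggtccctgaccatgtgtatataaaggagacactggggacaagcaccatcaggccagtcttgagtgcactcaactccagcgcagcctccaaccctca
Hbb-y: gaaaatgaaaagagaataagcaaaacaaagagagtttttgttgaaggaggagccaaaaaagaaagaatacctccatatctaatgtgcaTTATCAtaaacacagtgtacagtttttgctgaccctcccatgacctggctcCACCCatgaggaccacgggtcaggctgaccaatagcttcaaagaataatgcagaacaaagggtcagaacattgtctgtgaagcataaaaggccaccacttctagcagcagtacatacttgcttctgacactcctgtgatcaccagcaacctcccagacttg
The Alas2 window held a GATA match starting at -86 and 3 CACCC matches at -40, -35 and -30 that abut one another. The Epb42 window held a GATA match at -226 and no CACCC match. In the Hba-x window, GATA matches lay at -234 and -108 and CACCC matches at -198 and -95, and in that of Hbb-y a GATA match lay at -162 and a CACCC match at -111. Windows were given for 7 of the 10 genes, and 6 of the 7 held a GATA match, 6 a CACCC match and 5 both. Of 32851 windows of the same length, 29.8% held a GATA match, 57.5% a CACCC match and 14.9% both. A match describes the letters only.

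The values that follow are log2 of the spot signal over the array's 75th percentile, a measure that sets each gene against the other spots of its own array. Hba-x encodes zeta-globin, the embryonic alpha-like chain. It had 6.52, 6.77 and 7.04 in phenobarbital replicates 1 to 3, against 7.64, 8.49 and 6.94 in control replicates 1 to 3. Control replicate 3 lay within the phenobarbital range, so the groups overlapped, and the log2 fold change of -0.91 ± 0.38 (SE, n = 3 per group) did not pass (limma, adjusted p = 0.142), and was -0.52 without control replicate 2. Hbb-bh1 encodes an embryonic beta-like chain of primitive red cells. Its values were 5.96, 6.67 and 6.87 with phenobarbital and 8.02, 8.75 and 6.95 in control. The groups did not overlap, by a narrow margin at control replicate 3, and the log2 fold change of -1.41 ± 0.47 did not pass (adjusted p = 0.0865). Its 95% interval, -2.54 to -0.27, lay below 0.

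Hbb-y encodes epsilon-y-globin, the other embryonic beta-like chain. On its tested probe, the one with the higher mean log2 value, the values were 8.35, 8.32 and 8.36 with phenobarbital and 8.94, 9.12 and 8.94 in control. All phenobarbital arrays lay below all control arrays, and it fell by 0.66 ± 0.10 (limma, adjusted p = 0.0136). The other Hbb-y probe had a log2 fold change of -0.31 ± 0.10, which did not pass (adjusted p = 0.0845 over all 34673 probes, of which 8.74% fell and 6.97% rose). Hba-a1 encodes adult alpha-globin, which primitive cells also make. Its values were 7.70, 7.75 and 7.64 with phenobarbital and 8.33, 8.37 and 8.25 in control, again with no overlap, and it fell by 0.62 ± 0.10 (adjusted p = 0.0141). These 2 genes varied little inside a group: the highest control array was 1.14-fold over the lowest for Hbb-y and 1.09-fold for Hba-a1, against 2.93-fold for Hba-x and 3.48-fold for Hbb-bh1.

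**Figure D1:**
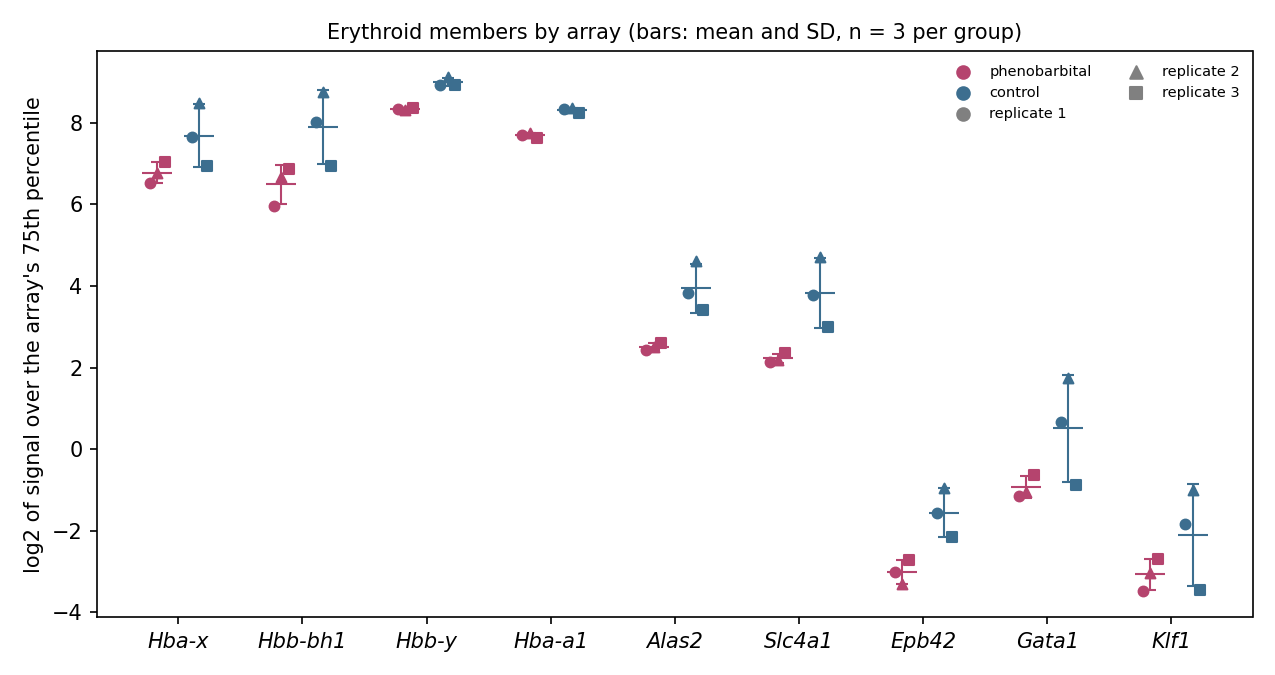
Log2 signal over the array's 75th percentile (y axis) of the 9 erythroid genes in each array, phenobarbital left of control, with bars for the mean and SD of 3 arrays. Phenobarbital arrays lie below control arrays without overlap in Alas2, Epb42, Slc4a1, Hba-a1, Hbb-y and Hbb-bh1.

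Whether the falls of Hba-a1 and Hbb-y passed depended on the scaling. Both also passed when scaled to the median (limma, adjusted p = 0.0349 and 0.0207). With the percentile over probes above background on all arrays, only these 2 of the 9 passed (0.0231 and 0.0301). The 75th percentile itself was higher on the phenobarbital arrays, 1802 to 1853 signal units against 1116 to 1286 on the control arrays, a shift of 0.61 on the log2 scale. Before scaling, the Hba-a1 signal was 382021, 399484 and 359086 with phenobarbital and 414105, 368590 and 365429 in control. Those signals overlap and differ by -0.01 on the log2 scale. The Hbb-y probe that did not pass had 630130, 674279 and 696259 with phenobarbital against 596181, 487535 and 545355 in control, so before scaling every phenobarbital array was above every control array. The tested Hbb-y probe had 600116, 591642 and 590453 with phenobarbital and 632714, 621584 and 588203 in control, which overlap. After quantile normalization, Hba-a1 had -0.17 and the tested Hbb-y probe -0.16, neither of which passed (adjusted p = 0.242 and 0.243), and the other Hbb-y probe had 0.14. Quantile normalization gives probes of equal rank the same value on every array. It therefore limits how far the brightest probes can differ, and cannot decide whether these probes fell.

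The brightest globin probes were close to the top of the scanner's range, which the same values show. The Hbb-y probes read 62.8% to 89.7% and 75.8% to 81.5% of the saturation value over the 6 arrays, Hba-a2 73.0% to 83.0% and Hba-a1 46.3% to 53.4%. Hbb-bt read 32.8% to 50.7%, Hba-x 19.0% to 51.7% and Hbb-bh1 14.8% to 61.9%, with log2 fold changes of -1.02, -0.91 and -1.41. No spot of an erythroid gene was marked saturated or as an outlier, and all 9 genes were well above background on all 6 arrays. Alas2 read 1.27% to 3.49% of the saturation value and Slc4a1 1.04% to 3.75%. The part of the nearness to saturation in the values of Hba-a1 and Hbb-y was not tested.

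**Figure D2:**
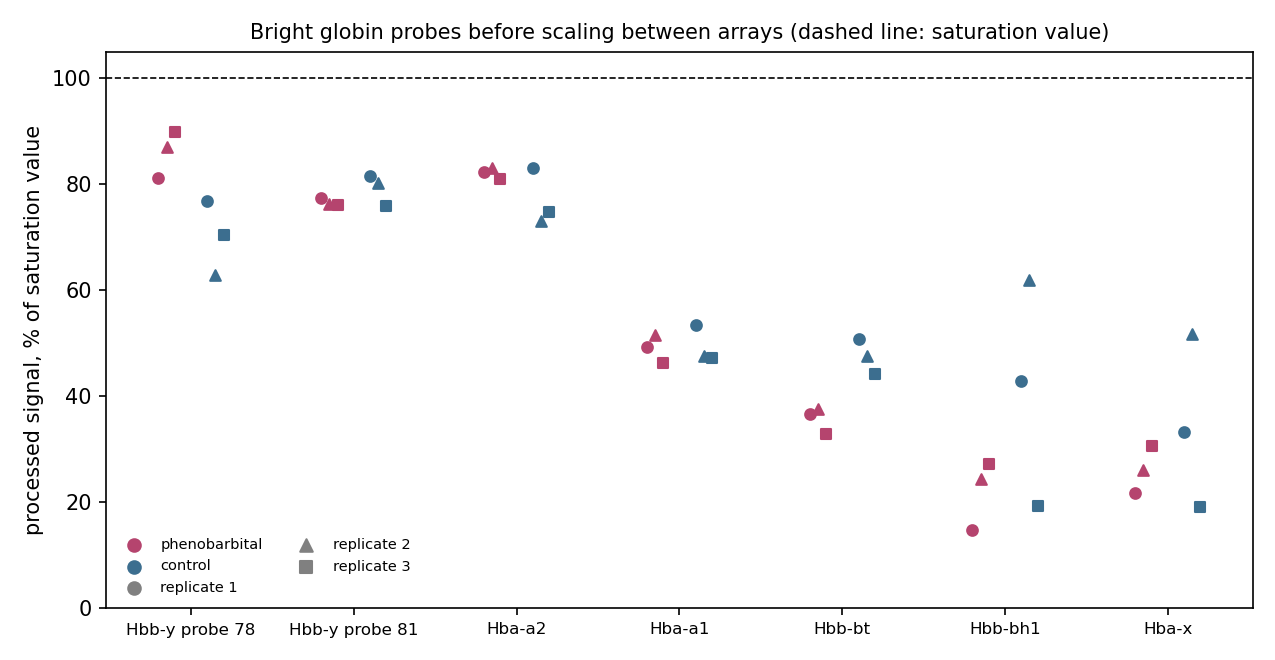
Spot signal before scaling, as a percent of the scanner's saturation value (y axis), of 7 globin probes on the 3 phenobarbital and 3 control arrays. The Hbb-y probes, told apart by the last digits of their names, lie between 62.8% and 89.7%, with one of them higher on every phenobarbital array than on any control array.

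Other globin genes of the array were set beside these, 7 of 8 listed being on it and 6 tested. Hba-a2, the second adult alpha-globin gene, nearly identical to Hba-a1, fell by 0.51 ± 0.09 (limma, adjusted p = 0.0195). Its signals before scaling differed by 0.10 and after quantile normalization by -0.01. The adult beta-globin gene Hbb-bt fell by 1.02 ± 0.11 (0.00501), with 7.27, 7.30 and 7.14 with phenobarbital and 8.26, 8.37 and 8.15 in control. The probe matched to Hbb-b2 fell by 0.97 ± 0.10 (0.00459), and which adult beta-globin transcript it read was not tested. Hbb-bt and this probe fell after quantile normalization too, by 0.57 and 0.79 (adjusted p = 0.0178 and 0.00854), and both passed with any 1 array left out. The theta-globin gene Hbq1a fell by 1.43 ± 0.21 (0.0118), and its sister Hbq1b had -1.09 ± 0.51 (0.176), which was -0.52 without control replicate 2 and -1.61 without control replicate 3. Of all 10 globin genes tested, 6 fell and none rose, against 10.5% lower and 6.24% higher among all names. The count was 3 without control replicate 1, 3 without phenobarbital replicate 1 and 2 without phenobarbital replicate 2. It stayed at 6 without phenobarbital replicate 3, control replicate 2 or control replicate 3. Of all names 871 to 4397 passed with 1 array left out, against 4234. Some of these genes are near-identical or closely similar copies (Hba-a1 and Hba-a2, the adult beta-globins Hbb-bs, Hbb-bt and Hbb-b2, Hbq1a and Hbq1b). A probe for any copy may also pick up another, so these counts may not be of separate transcripts.

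Hbb-bs, the adult beta-globin gene beside Hbb-bt, ran the other way between arrays. It had 0.92, 0.80 and 0.63 with phenobarbital and 0.92, 0.22 and 1.59 in control. Its lowest value was in control replicate 2, where all 9 erythroid genes had their highest. Its log2 fold change was -0.13 ± 0.33 (limma, adjusted p = 0.810). It was -0.47 without control replicate 2 and 0.21 without control replicate 3. Hbb-bh2, another beta-like gene of the cluster, was not well above background on enough arrays to be tested.

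Slc4a1 encodes band 3, the anion exchanger of the red cell membrane, and had the largest log2 fold change of the 9. Its values were 2.13, 2.20 and 2.36 with phenobarbital and 3.78, 4.71 and 2.99 in control. All phenobarbital arrays were below all control arrays, and it fell by 1.60 ± 0.40 to 0.331 of the control level (95% interval 0.169 to 0.649, limma, adjusted p = 0.0442). Epb42 encodes protein 4.2, which ties band 3 to the membrane skeleton. It had -3.02, -3.30 and -2.71 with phenobarbital and -1.56, -0.96 and -2.16 in control, and fell by 1.45 ± 0.32 to 0.366 of the control level (0.216 to 0.621, adjusted p = 0.0321). The phenobarbital arrays were all lower on this scale, while the Epb42 signals before scaling overlapped, at 227, 187 and 275 with phenobarbital and 436, 572 and 268 in control.

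Alas2 encodes the first enzyme of heme synthesis in red cells. Its values were 2.42, 2.51 and 2.61 with phenobarbital and 3.82, 4.60 and 3.41 in control. The groups did not overlap, and it fell by 1.43 ± 0.29 to 0.371 of the control level (95% interval 0.228 to 0.605, limma, adjusted p = 0.0279). Before scaling its signals were 9870, 10561 and 10973 with phenobarbital and 18170, 27098 and 12724 in control, which do not overlap either. Slc4a1 signals before scaling, 8066, 8485 and 9225 with phenobarbital and 17626, 29137 and 9520 in control, likewise had every phenobarbital array below every control array. On the log2 scale these unscaled signals differed by -0.82 for Alas2 and -0.98 for Slc4a1. After quantile normalization Alas2, Slc4a1 and Epb42 had -1.27, -1.45 and -1.43, and Epb42 alone passed (adjusted p = 0.0594, 0.0855 and 0.0356).

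The regulators had wide control values. GATA1 is the lineage factor that red cell genes depend on, and its gene had -1.14, -1.04 and -0.62 with phenobarbital and 0.66, 1.74 and -0.88 in control. Control replicate 3 lay inside the phenobarbital range, and the log2 fold change of -1.44 ± 0.62 did not pass (limma, adjusted p = 0.149). Klf1, the gene of the CACCC-binding factor of red cells, had -3.48, -3.03 and -2.70 with phenobarbital and -1.84, -1.01 and -3.46 in control. Here too control replicate 3 fell among the phenobarbital arrays, and the log2 fold change was -0.97 ± 0.60 (0.289). Without control replicate 3, Gata1 had -2.13 (adjusted p = 0.0301), Klf1 -1.65 (0.0450) and Hbb-bh1 -1.88 (0.0380). Without control replicate 2 they were nearer 0, at -0.82 for Gata1 (adjusted p = 0.215), -0.42 for Klf1 (0.540) and -0.98 for Hbb-bh1 (0.121).

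**Figure D3:**
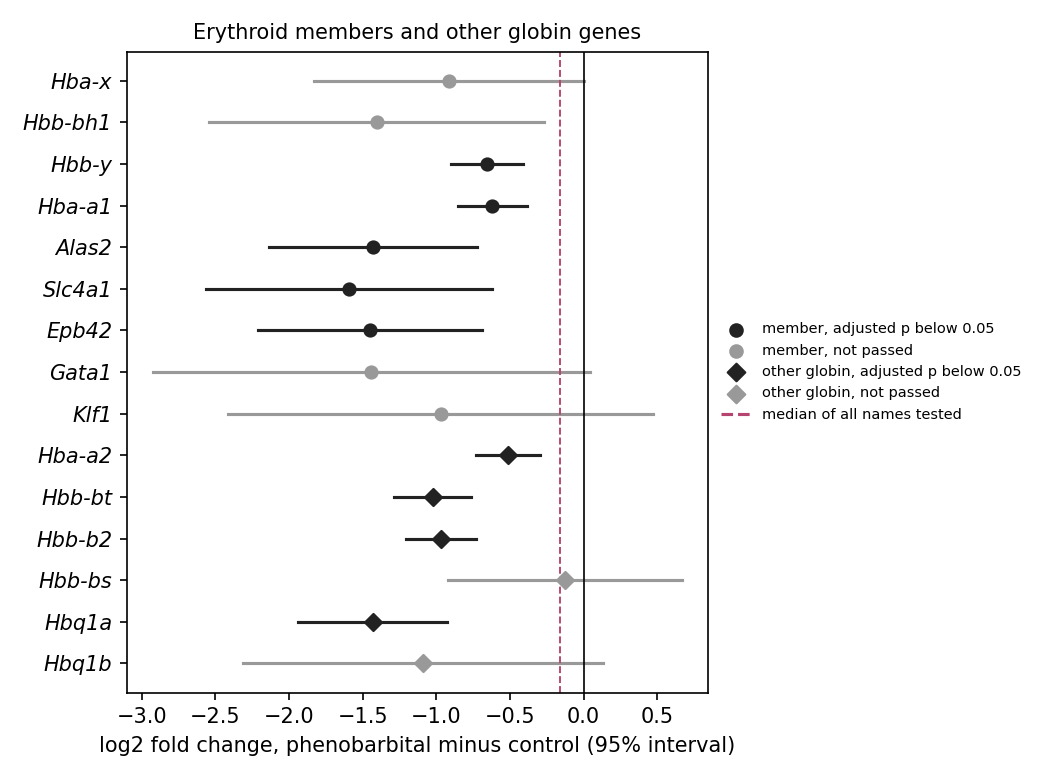
Log2 fold change, phenobarbital minus control, with its 95% interval (x axis), of the 9 erythroid genes and 6 other globin genes. The 5 erythroid genes that passed lie between -1.60 and -0.62, and the intervals of Hba-x, Gata1 and Klf1 reach above 0.

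Globin and other erythroid genes were compared within each array, which removes a constant factor of an array but not one that changes with brightness. The difference is read between arrays only, since probes differ in brightness. The mean log2 value of the other 5 genes lay -7.75, -7.91 and -7.69 from that of the 4 globins on the phenobarbital arrays and -7.26, -6.87 and -7.79 on the control arrays. Control replicate 3 lay within the phenobarbital range, so the groups overlapped, and the group means differed by -0.48. Of the fold changes, the 4 globins had a median of -0.79 and the other 5 a median of -1.44. Relative to Hba-x on the same array, Slc4a1 differed by -0.68, Epb42 by -0.53, Alas2 by -0.51 and Hbb-bh1 by -0.49. Gata1 and Klf1 relative to Hba-x differed by -0.53 and -0.05, with overlap. The globins Hba-a1 and Hbb-y went the other way relative to Hba-x, by 0.29 and 0.26, also with overlap. For both, control replicate 3 was the highest array, at 1.31 and 2.00, and control replicate 2 the lowest, at -0.12 and 0.63.

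On their tested probes the 9 genes ordered the control arrays alike. In each of them control replicate 2 was highest of the 6 arrays, control replicate 1 next among controls and control replicate 3 lowest of the controls. The other Hbb-y probe did not share this order: its controls were 8.86, 8.77 and 8.83, with control replicate 2 the lowest of them. Of 68 other genes on the erythroid lists, 45 had this order of the controls and 48 had control replicate 2 highest, and of 25276 names with all values 26.6% and 30.4% did. The highest control was 6.14-fold over the lowest for Gata1, 5.47-fold for Klf1, 3.29-fold for Slc4a1, 2.30-fold for Epb42 and 2.29-fold for Alas2, while the phenobarbital arrays lay within 1.88-fold for all 9 genes. The 3 phenobarbital arrays and control replicate 1 shared slide 1, control replicate 2 was on slide 2 and control replicate 3 on slide 3. The order of the controls therefore cannot be told apart from the slide.

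Within slide 1, where the slide as a block sets control replicate 1 against the phenobarbital arrays, the log2 fold changes were -1.55 for Slc4a1, -1.45 for Epb42, -1.31 for Alas2, -1.59 for Gata1 and -1.23 for Klf1. Among the globins they were -1.52 for Hbb-bh1, -0.87 for Hba-x, -0.63 for Hba-a1 and -0.60 for Hbb-y. This comparison rests on 1 control array, and its residual spread comes from the phenobarbital arrays alone, so the values are given without a test.

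**Figure D4:**
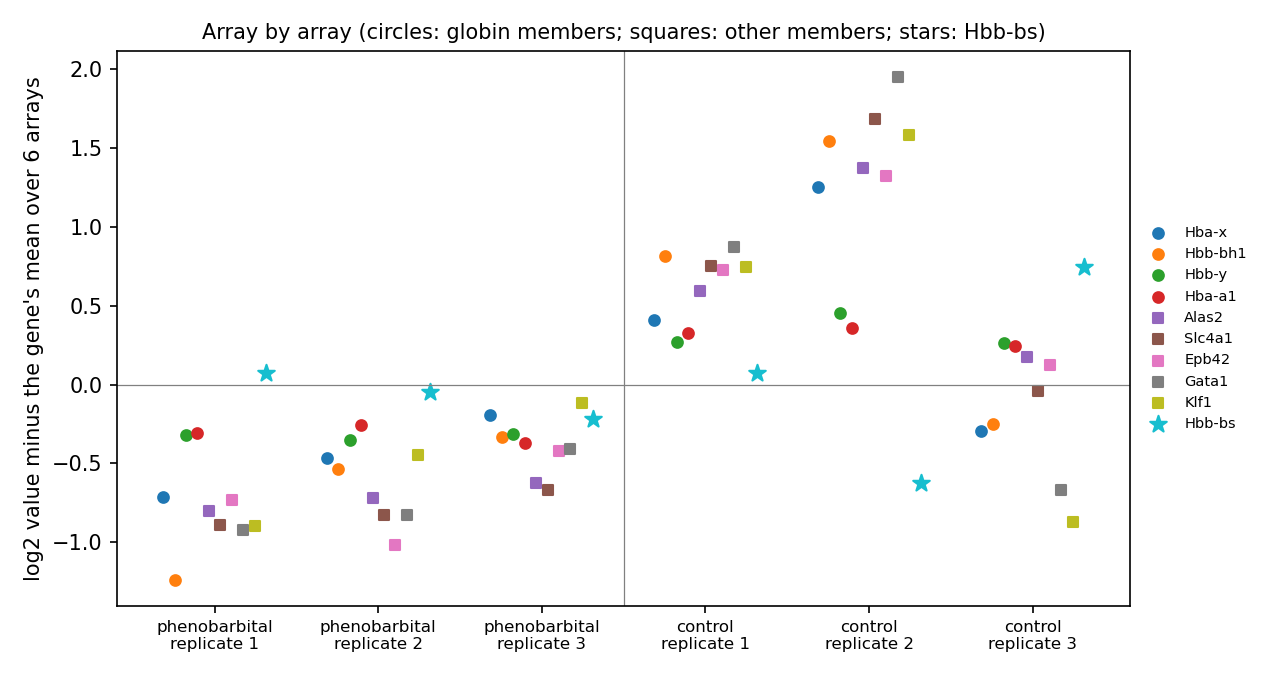
Log2 value of each gene minus its mean over the 6 arrays (y axis) by array, with circles for the 4 globins, squares for the 5 other erythroid genes and stars for Hbb-bs. Control replicate 2 stands highest for all 9 erythroid genes and lowest for Hbb-bs, and in control replicate 3 Hba-x, Hbb-bh1, Gata1 and Klf1 lie at or near the phenobarbital arrays.

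Other genes of the red cell programme were taken from lists, whose counts stand against 10.5% lower and 6.24% higher among all names. With 1 array left out, 871 to 4397 of all names passed in either direction, against 4234 with all 6. Among 17 tested membrane genes, 4 fell, none rose and 13 were short of the threshold, with a median log2 fold change of -0.86, against -0.16 for all names. Beside Epb42 and Slc4a1 these were Kel, the protease that carries the Kell blood group, which fell by 1.48 ± 0.26 (limma, adjusted p = 0.0195), and Epb41, a membrane skeleton gene, which fell by 0.64 ± 0.12 (0.0243). Dimmer Epb41 probes had -0.39 and -0.22 and did not pass. The membrane median was -0.55 without control replicate 2 and -1.34 without control replicate 3. No membrane gene passed without control replicate 1 or without any 1 of the phenobarbital replicates.

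Genes of heme synthesis and iron handling split. Of 18 tested, 3 fell, 2 rose and 13 did not pass, with a median of -0.38, or -0.24 without control replicate 2. Fech, the last enzyme of heme synthesis, fell by 0.97 ± 0.23 (limma, adjusted p = 0.0381) and Slc25a37, the mitochondrial iron importer, by 1.26 ± 0.32 (0.0433). A dimmer Slc25a37 probe had -0.59 and did not pass. Alad, an enzyme of heme synthesis made in all cells, rose by 0.81 ± 0.11 (0.00951). Without control replicate 1, and without any 1 of the phenobarbital replicates, none of the 18 fell and 2 rose, and the same counts held after quantile normalization.

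Of 18 regulators of the lineage, 2 fell, none rose and 16 were short of the threshold, with a median of -0.47, so the count of falls was near the share among all names. Lyl1, a helix-loop-helix factor of blood cells, fell by 1.26 ± 0.17 (limma, adjusted p = 0.00911) and Nfe2, a partner of small Maf proteins, by 1.33 ± 0.35 (0.0472). Over the 18 the log2 fold changes ran from -1.94 to 1.09, and 13 were negative. Without control replicate 3, 8 of the 18 fell, without control replicate 2, 4 fell and 1 rose, and without control replicate 1 and without each of the phenobarbital replicates in turn, 1 fell. Of 14 further red cell genes 5 fell, none rose and 9 were short of the threshold, with a median of -0.35. None of these 14 fell without control replicate 1 or without any 1 of the phenobarbital replicates. Among the 5 the antioxidant enzyme gene Cat fell by 0.82 ± 0.18 on its tested probe, while its other probe rose by 0.88 (adjusted p = 0.0244 over all probes). Blvrb, a biliverdin reductase, fell by 1.36 ± 0.29 (0.0314) and Trim10, a RING finger gene of late red cell development, by 1.30 ± 0.29 (0.0330). Across the 68 erythroid genes that are not among the 9, 15 fell, 2 rose and the median was -0.47.

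Markers of other cell types moved in the same comparison, in which 10.5% of all names were lower and 6.24% higher. Here too the counts with 1 array left out stand against 871 to 4397 of all names, and 4234 with all 6. Mural and meningeal genes had 7 of 12 lower and none higher, with mean log2 levels per array of -0.17 to 0.14 with phenobarbital and 0.62 to 0.66 in control. Endothelial genes had 4 of 12 lower and none higher, with levels of 0.06 to 0.56 with phenobarbital and 0.59 to 0.74 in control. Their log2 fold changes were negative for 9 of the 12 and reached 0.71 among the others. Of 12 megakaryocyte and platelet genes 2 were lower, with levels of -1.78 to -1.39 with phenobarbital and -1.20 to -0.90 in control, and of 6 tested genes of liver blood-forming and stem cells 3 were lower. Of 11 microglia and macrophage genes 4 were lower and 1 higher, with overlapping levels of -1.24 to -0.79 with phenobarbital and -0.90 to -0.78 in control. The choroid plexus, a vascular epithelium at the midline, had 5 of 7 tested genes higher. Kcne2, 1 of the 5, was above background on the phenobarbital arrays only and so could be tested only through the group where it is high. The count was 1 without control replicate 1, phenobarbital replicate 1 or phenobarbital replicate 3, and 2 without phenobarbital replicate 2. Without phenobarbital replicate 2 no gene of the mural, endothelial, megakaryocyte, liver or microglial lists passed. The part of these cell types in the erythroid values was not tested.

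Genes of the labelled cell type were present at overlapping levels in both groups. All 12 cortical progenitor genes were well above background on all 6 arrays, with mean log2 levels of 3.34 to 3.53 with phenobarbital and 3.27 to 3.52 in control. Of them 1 fell, 1 rose and 10 did not pass. Newborn neuron genes had 5 of 8 lower, with levels of 3.39 to 3.75 with phenobarbital and 3.78 to 4.25 in control. None of the 8 passed without control replicate 1 or without phenobarbital replicate 2, and 1 did without control replicate 3, phenobarbital replicate 1 or phenobarbital replicate 3, and when scaled to the median.

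**Figure D5:**
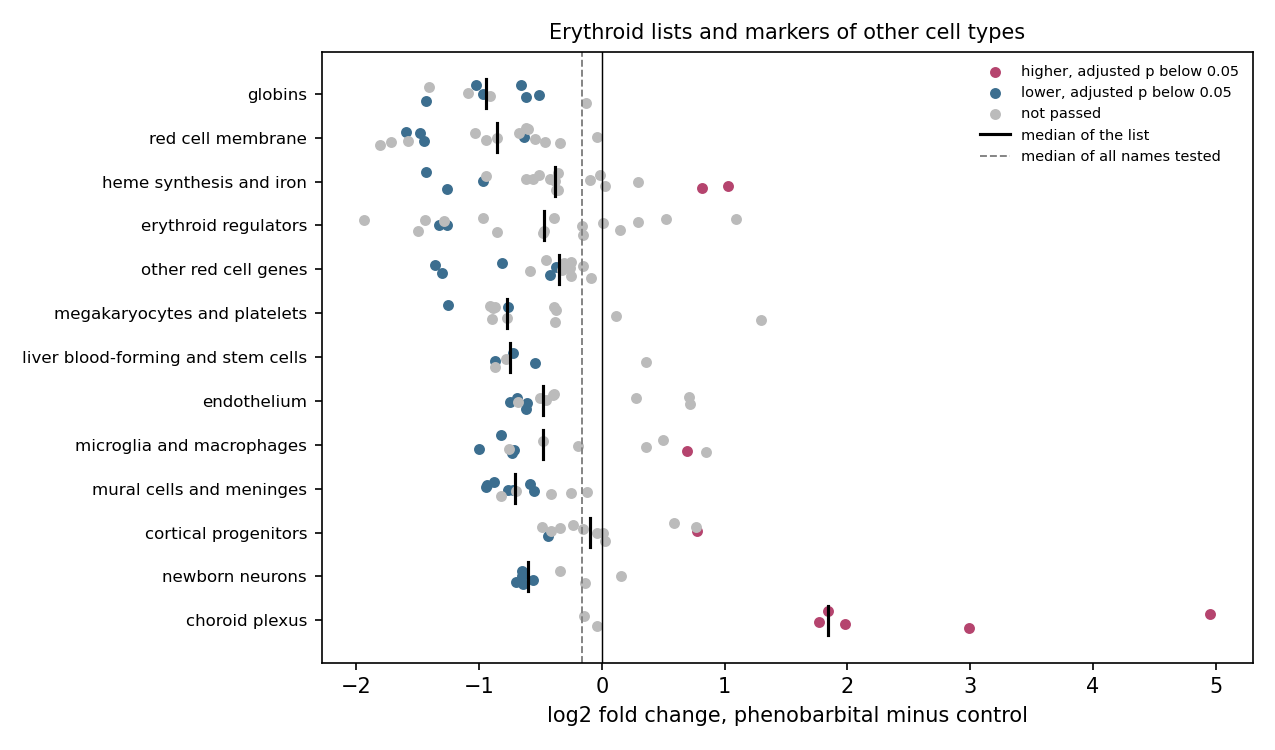
Log2 fold change, phenobarbital minus control (x axis), of each gene on the erythroid lists and on the lists of other cell types, coloured by whether it passed, with a bar for the list's median and a dashed line for the median of all names. Globin and red cell membrane medians lie at -0.94 and -0.86, and that of all names at -0.16.

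The genes most like these in profile were sought among 15092 gene symbols outside the erythroid lists, by Pearson's r over the 6 arrays, given without a test. To the mean profile of the 5 non-globin genes, Usp2 (r = 0.999), Cblb, Sh3tc2, Pdzph1 and Tgm2 came nearest. To that of the 4 globins, Nlrc3 (r = 0.998), Etv1, Gm9079, Krtap9-1 and Tmed2 did. None of these 10 passed the test between the groups, and 279 and 314 symbols had r above 0.95 to the profiles of the non-globin genes and the globins. The 6 arrays share slides and scaling.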

How the data were processed

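Cortical cells from embryos of phenobarbital-treated and saline-treated dams were measured on 1-colour Agilent arrays. Per the file headers, the authors quantified the scans using the Agilent Feature Extraction software, version 10.7.3.1, given as 10.7 in the submitters' processing notes, and the array annotation uses mm9. The deposited spot signals are intensity values on the linear scale, with background subtraction and detrending inside each array and none of the arrays scaled to another. The authors' deposited value table holds log2 values. Its differences between arrays were set against those of the log2 scanner signals, for probes with a single spot. With each array's median offset removed, 99% of them matched to within 1.78e-06. This settles the table's scale and direction and leaves its centring unknown. Its column medians were -0.02, -0.09 and -0.08 in phenobarbital replicates 1 to 3 and 0.08, 0.10 and 0.09 in control replicates 1 to 3.

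Of 62976 spots per array, 59305 were not controls. Outlier spots (98 to 198 per array) were dropped, and log2 signals were set against each array's 75th percentile. Between 62.8% and 68.7% of spots were well above background, and the number of arrays limits precision. Probes were named by accession through the RefSeq gene table (GRCm38.p6): 26582 matched, for 20145 symbols, and 29099 did not. Tested probes (34673) were well above background on all arrays of at least 1 group and had 2 or more values in each, and the brightest probe of a name was tested. The comparison used limma 3.58.1 in R 4.3.3 (lmFit, eBayes), two-sided, no covariates, Benjamini-Hochberg adjustment over 25304 names, threshold 0.05. The fit was tested on simulated data. Alternatives changed the background correction (normexp with an offset of 50, applied to medians of spot pixels in place of the planned means, which the files do not hold), scaling, filters, probe choice, prior, weights, source table and blocks, and left out each replicate.

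Named in the text were the 9 genes with all probes, the other globin genes, members of each list past the threshold (at most 6 by smallest p), and the 5 symbols nearest in profile to the globins and to the other genes. Some genes that the rule selects are not reported here. The genes and lists were chosen with earlier results of these data known. Same-numbered replicates deviated together by correlations of 0.08, -0.16 and -0.35. With so few arrays these values cannot decide whether the numbers pair samples, which the labels do not state.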

Additional observations from a re-analysis of the deposited data

How the results depend on the processing

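On their tested probes all 9 erythroid genes kept a negative log2 fold change in all 21 alternatives, while the other Hbb-y probe turned to 0.14 after quantile normalization. The threshold was less stable. Against 5 of the 9 passing, 1 did after quantile normalization, 2 when the percentile was limited to detected probes, 2 with no filter on dim probes, 8 with array weights, 3 with the slide as a block (1 control array) and 0 to 8 with each replicate left out. Quantile normalization gave a globin median of -0.34, against -0.79, and set the other genes' median -1.09 from it, against -0.65. It limits how far the brightest probes can differ, so the globin median and this gap cannot be read apart from that limit. Across all names 4234 passed (1580 higher, 2654 lower). The count was 2966 after quantile normalization (1592 higher, 1374 lower), 2470 when scaled to the median (1442 higher, 1028 lower), 2716 with the percentile of detected probes (1612 higher, 1104 lower), 6263 with normexp (1521 higher, 4742 lower), 1486 with no filter, 10175 with array weights, 771 with the slide block and 871 to 4397 with a replicate left out. With the replicate number as a block, a pairing that the labels do not state, 0 of the 9 and 295 names passed. The left-out fits have fewer arrays. The cause of the other differences was not tested. Bright globin probes near the top of the scanner's range, and dim Epb42 and Klf1, limit what their signals show.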
